A study of Homo sapiens with 46 samples.

Results

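Named genes of the Notch pathway, 10 in all, were followed across all libraries: the receptors NOTCH1, NOTCH2 and NOTCH3, the ligands DLL1, DLL3, JAG1 and JAG2, the DNA-binding effector RBPJ, and the target genes HES1 and HEY1. Members were chosen by gene symbol in the 4 count tables, 1 for each cell type, each built on that cell type's own transcript assembly. They made 10 of 21166 Ensembl genes listed in any table, with 74 assembled isoforms in all. The hPSC table listed 9 of the 10 members, ectoderm 10, endoderm 8 and mesoderm 9, and 7 members were in every table. HEY1 was not listed in hPSC and endoderm, DLL1 not in endoderm, and DLL3 not in mesoderm.

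RNA of subcellular fractions was sequenced from H1 cells, a human embryonic stem cell line in wide use (hPSC in what follows), and from cultures of 3 lineages made from them. All groups share the H1 origin, so the lineages are cultures of 1 line under different media. hPSC were kept in mTeSR1 medium on Matrigel. Ectoderm was collected at day 5 in medium with 15% KOSR and the inhibitors A83-01, PNU-74654 and Dorsomorphin at 2 uM each. Endoderm received Activin A at 100 ng/ml, WNT3A and 0.5% FBS. Mesoderm received VEGF and BMP4 at 100 ng/ml each, bFGF at 10 ng/ml and 0.5% FBS, with Activin A at 100 ng/ml for the first 24 hours. Each cell type gave libraries labelled cytoplasm, nucleus, chromatin and nucleoplasm. That design gave 16 groups and 46 libraries. There were 3 libraries in 15 groups and 1 in mesoderm nucleoplasm, whose column carries the number 3 while the only labelled sample is repeat 1, so it was matched by its group alone. The nucleus columns carry a code that was assigned to that label by elimination. The labels do not say whether replicates came from separate cultures, so p-values measure only the spread between these libraries.

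Notch receptors are single-pass membrane proteins that are bound by DLL and JAG ligands on neighbouring cells. Ligand binding lets ADAM proteases and then the gamma-secretase complex cut the receptor, and the freed intracellular domain enters the nucleus, where it joins RBPJ and Mastermind-like coactivators at target genes of the HES and HEY families. In early neural tissue the pathway is known for holding progenitors undifferentiated, with DLL1 on cells that begin to differentiate, while DLL3 is a divergent ligand that acts mainly within the cell that makes it.

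RBPJ binds DNA at a core of the letters TGGGAA. HEY1 was not searched, and 7 of the other members had a promoter in the RefSeq table (build GRCh38.p14), with 11 promoters in all, each taken from 250 bases before to 50 bases after the start. The core, searched on both strands, was in promoters of 2 members, HES1 and RBPJ itself, with 2 matches each. Both RBPJ matches lay in 1 promoter, and the other RBPJ promoters had none. Of 35116 promoters of the same length, 24.0% held at least 1 match and 3.80% at least 2. The 150 bases before each start are printed because they are the only member promoters with the core. Capitals mark the core, which reads TTCCCA where it lies on the other strand.
HES1, GRCh38.p14, chr3:194135998-194136147, + strand: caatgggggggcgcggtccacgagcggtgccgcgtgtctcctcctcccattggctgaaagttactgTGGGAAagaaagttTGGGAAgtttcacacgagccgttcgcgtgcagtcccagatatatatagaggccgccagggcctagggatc
RBPJ, GRCh38.p14, chr4:26319596-26319745, + strand: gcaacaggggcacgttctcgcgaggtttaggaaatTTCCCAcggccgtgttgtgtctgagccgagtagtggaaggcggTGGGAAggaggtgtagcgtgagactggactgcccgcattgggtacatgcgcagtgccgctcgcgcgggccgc
In HES1 both matches lie on the gene's own strand and begin 84 and 70 bases before the start. In RBPJ the matches begin 115 bases (other strand) and 72 bases before it. A match is a description of letters, and no library measured binding at either promoter.

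In the GENCODE v29 annotation of GRCh38 the receptor genes lie on the minus strand, NOTCH1 at chr9:136494433-136545786, NOTCH2 at chr1:119911553-120069626 and NOTCH3 at chr19:15159038-15200981. The ligands lie at chr6:170282206-170306565 (DLL1, minus strand), chr19:39498895-39508481 (DLL3, plus strand), chr20:10637684-10673999 (JAG1, minus strand) and chr14:105140981-105168824 (JAG2, minus strand). RBPJ spans chr4:26163455-26435131 and HES1 chr3:194136145-194138732, both on the plus strand. Values below are sums over all assembled transcripts of a gene.

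Total counts per library ran from 4990408 (mesoderm) to 21298678 (ectoderm). No 2 replicate libraries were identical in 45 pairs, and Pearson's r across genes between replicate libraries lay between 0.930 and 0.994; genes are not independent replicates. In cytoplasm, 7 hPSC markers summed to 7499 to 8415 CPM in hPSC and still to between 2148 and 5736 in the lineages. Ectoderm markers summed to 744 to 878 CPM in ectoderm and to at most 176 elsewhere, and of 8 endoderm markers 7 were listed in endoderm (301 to 429 CPM) and none in hPSC and ectoderm. Mesoderm markers summed to 203 to 216 CPM in mesoderm but to 343 to 455 in endoderm, and 5 trophoblast and amnion markers summed to 361 to 394 CPM in mesoderm. The part of these markers in the results was not tested. Genes usually rich in cytoplasm or nucleus did not follow the fraction labels in every cell type: of 9 cytoplasmic control genes, 6 were higher and 3 lower in cytoplasm than in nucleus in hPSC, 0 and 6 in ectoderm, 4 and 3 in endoderm, and 9 and 0 in mesoderm. Of the nuclear control RNAs tested, 2 of 4 were higher and 1 lower in cytoplasm in hPSC, 4 and 0 of 5 in ectoderm (median log2 1.17), 1 and 2 of 4 in endoderm, while mesoderm had 0 and 3 of 4. MALAT1, a long noncoding RNA known to stay in the nucleus, had a mean of 1661 CPM in ectoderm cytoplasm and 168 CPM in ectoderm nucleus. The libraries labelled nucleus did not lie between chromatin and nucleoplasm for every gene: in hPSC MALAT1 averaged 81.6 CPM in nucleus, 137 on chromatin and 819 in nucleoplasm, and DLL3 45.9, 15.1 and 13.8 CPM. Each comparison of fractions below is therefore one of libraries as labelled, and the part of fraction purity in them was not tested. In bulk libraries, fewer cells of a type and less RNA per cell cannot be told apart.

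Member levels are given as CPM (counts scaled to the library total), summed over a gene's isoforms, and beside them as the authors' TPM, which divides by transcript length. The cell types were counted on different assemblies, so a gene's assembled length can change with the cell type. The length implied by counts and TPM was 8084 bases for the main NOTCH1 isoform in hPSC but 1725 in mesoderm. For JAG2 it was 4425 in hPSC and 2173 in endoderm. For NOTCH3 it was 8737 in hPSC, while endoderm had 3 separate entries of 3953, 1662 and 2361 bases; the TPM of NOTCH3 in endoderm sums all 3 and may count the same RNA repeatedly. The HES1 entry of the endoderm table had an implied length of 4 bases and 15 counts over 12 libraries, so no level of HES1 is read from it. A result is called at an adjusted p under 0.05 in edgeR's quasi-likelihood F test, adjusted over all genes of the fit by the Benjamini-Hochberg method; the SE given with it (standard error) is its absolute log2 change over the square root of F. Where a log2 change on the TPM scale is given, it comes from limma on log2(TPM + 1). Adding 1 shrinks changes of members at low TPM, such as NOTCH1 in mesoderm cytoplasm (mean 0.96) and DLL3 on endoderm chromatin (0.41). For such members the TPM scale differs from counts by more than transcript length.

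**Figure D1:**
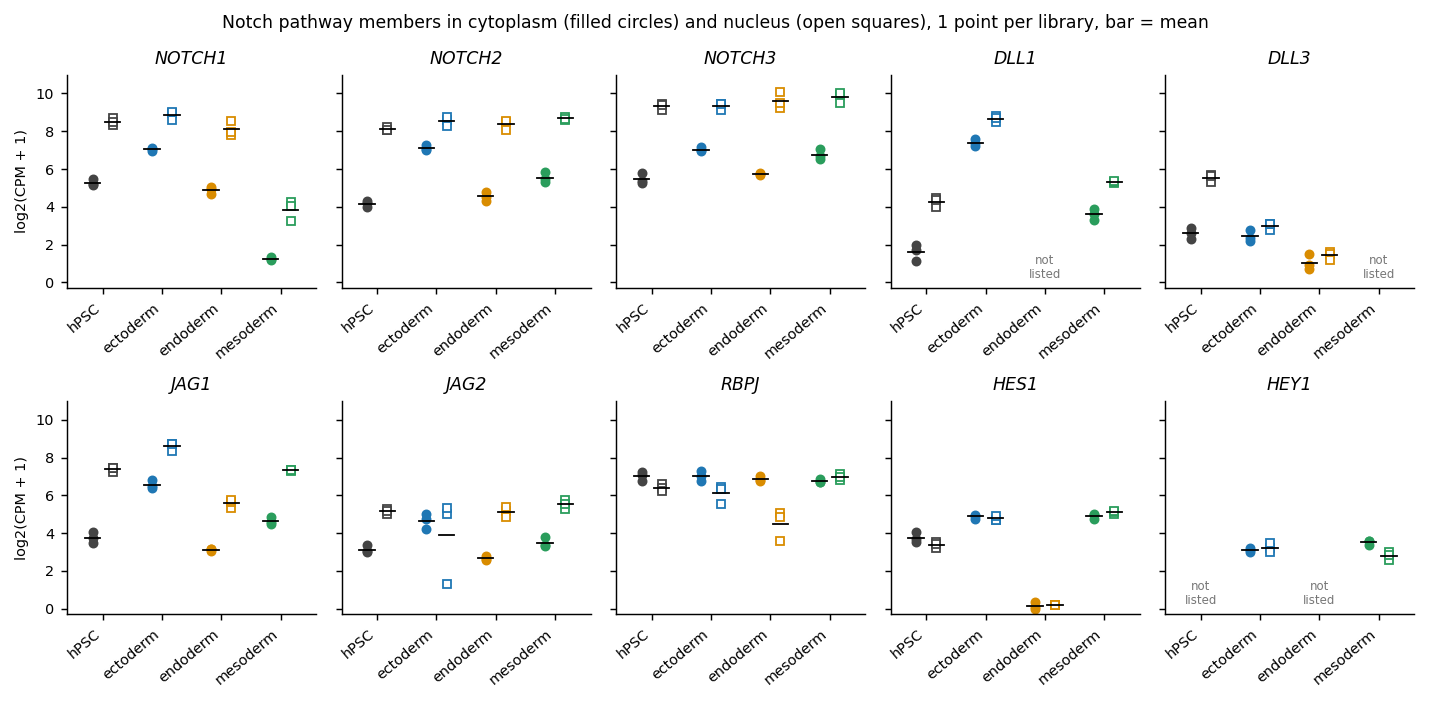
log2(CPM + 1) of each member in cytoplasm (filled circles) and nucleus (open squares) of the 4 cell types, with 1 point per library and a bar at the mean of 3 libraries. NOTCH1 to NOTCH3 and JAG1 lie higher in nucleus than in cytoplasm in each cell type, DLL1 is highest in ectoderm, NOTCH1 is lowest in mesoderm, and 1 ectoderm nucleus library has a JAG2 value far below the other two.

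In ectoderm cytoplasm the receptors, the JAG ligands and HES1 were higher than in hPSC cytoplasm, and DLL1 showed the widest gap of the members. NOTCH1 measured 34.6, 36.5 and 43.1 CPM in hPSC and 138, 125 and 132 CPM in ectoderm, a 3.26-fold rise (log2 1.70, SE 0.12, adjusted p = 5.79e-09). NOTCH2 measured 18.8, 14.6 and 17.4 CPM in hPSC and 155, 128 and 130 CPM in ectoderm, a 7.69-fold rise (log2 2.94, SE 0.15, adjusted p = 1.53e-10). NOTCH3 measured 36.7, 40.5 and 55.3 CPM in hPSC and 143, 121 and 126 CPM in ectoderm, and rose by 1.46 (SE 0.14, adjusted p = 1.3e-07). For each of the 3 receptors, every ectoderm library lay above every hPSC library.

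The ligands did not all move together. DLL1, the Delta ligand of early neural differentiation, measured 1.20, 2.94 and 2.32 CPM in hPSC cytoplasm and 190, 148 and 168 CPM in ectoderm cytoplasm, a 68.3-fold rise (log2 6.09, SE 0.22, adjusted p = 2.03e-08 in the fit of genes listed in both tables). DLL1 in TPM went from 0.29, 0.86 and 0.71 to 63.0, 43.0 and 61.3. JAG1, a Serrate-type ligand, rose from 10.3, 12.4 and 15.4 CPM to 111, 83.5 and 89.2 CPM (log2 2.79, SE 0.14, adjusted p = 1.26e-10). The 3 ectoderm libraries of both genes stood well clear of hPSC. JAG2, the other Serrate-type ligand, rose from 7.20, 9.29 and 6.90 CPM to 30.8, 25.9 and 17.8 CPM (log2 1.57, SE 0.21, adjusted p = 6.1e-06). DLL3, the divergent ligand, measured 6.48, 5.08 and 3.85 CPM in hPSC and 4.14, 3.61 and 5.90 CPM in ectoderm, with overlapping libraries (log2 -0.27, SE 0.27, adjusted p = 0.388).

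RBPJ, the effector shared by all receptors, measured 107, 135 and 149 CPM in hPSC cytoplasm and 158, 107 and 131 CPM in ectoderm cytoplasm, and the libraries overlapped (log2 -0.08, SE 0.12, adjusted p = 0.563). HES1, a repressor and classical target of the pathway, measured 15.5, 12 and 10.7 CPM in hPSC and 30.1, 26.1 and 29.3 CPM in ectoderm, and rose 2.13-fold (log2 1.09, SE 0.18, adjusted p = 6.58e-05). In TPM the HES1 change was 1.14 but was not called (SE 0.68, adjusted p = 0.14), in a fit whose spread includes the endoderm entry of 15 counts. HEY1, another repressor of the same family, was listed in ectoderm cytoplasm at 7.71, 6.88 and 8.44 CPM and had no hPSC entry to test against. Of the 7 members tested in all 4 cell types, 6 were called and all 6 were higher in ectoderm. Over all genes 76% were called, 38% higher and 37.9% lower, and 75.4% had libraries without overlap. The median log2 change of the 7 members was 1.57 against 0.01 over all genes. In the fit on both tables' shared genes, 73.3% were called. All 6 calls were kept when any 1 library was left out. In TPM the median of all genes moved by 0.17, and the changes of NOTCH1, NOTCH2, NOTCH3, JAG1 and JAG2 were 1.69, 2.62, 1.52, 2.66 and 1.42.

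In the nucleus and on chromatin, fewer members differed between ectoderm and hPSC. JAG1 measured 149, 176 and 173 CPM in hPSC nucleus and 418, 330 and 415 CPM in ectoderm nucleus (log2 1.27, SE 0.13, adjusted p = 2.28e-06), and 117, 104 and 130 against 360, 316 and 368 CPM on chromatin (log2 1.57, SE 0.16, adjusted p = 1.33e-06). HES1 measured 10.5, 8.28 and 9.70 CPM in hPSC nucleus and 25.3, 25.3 and 29.1 CPM in ectoderm nucleus (log2 1.55, SE 0.17, adjusted p = 4.08e-06), with a like rise on chromatin (log2 1.57, SE 0.26, adjusted p = 1.52e-04). The libraries of both genes did not overlap in either fraction. NOTCH2 rose on chromatin, from 175, 171 and 204 CPM to 508, 389 and 549 CPM (log2 1.39, SE 0.23, adjusted p = 1.07e-04), while its nuclear libraries, at 263, 303 and 264 against 385, 306 and 436 CPM, were all higher in ectoderm but not called (log2 0.49, adjusted p = 0.0509). NOTCH1, NOTCH3, JAG2 and RBPJ were not called in either fraction, with log2 changes between -0.61 (JAG2, nucleus) and 0.70 (JAG2, chromatin; TPM 0.96 and called); leaving out hPSC chromatin replicate 3 made the JAG2 chromatin value a call (log2 1.07, adjusted p = 0.0144). The tests called 2 of 7 members in nucleus and 3 of 7 on chromatin, against 57.6% and 62.9% of all genes (28.7% higher and 28.9% lower in nucleus, 30.5% and 32.4% on chromatin), and 67.8% and 73.9% of genes had no overlap. In TPM the nuclear median of all genes moved by -0.32 and the higher share of calls went from 49.8% to 29.4%; the chromatin median moved by 0.15 (TPM) and 0.11 (library totals).

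The Delta ligands parted in the nuclear fractions. DLL1 measured 15.0, 21.5 and 19.4 CPM in hPSC nucleus and 448, 352 and 420 CPM in ectoderm nucleus (log2 4.52, SE 0.18, adjusted p = 1.14e-07), and 11.3, 7.20 and 10.8 against 542, 508 and 556 CPM on chromatin (log2 5.80). DLL3 fell in nucleus, from 39.0, 50.5 and 48.3 CPM to 5.81, 7.61 and 7.43 CPM (log2 -2.60, SE 0.21, adjusted p = 6.15e-06), and on chromatin, from 14.5, 14.0 and 16.8 CPM to 4.37, 4.22 and 4.53 CPM (log2 -1.75). For both genes all hPSC libraries lay on 1 side of all ectoderm libraries. These values come from the fit of genes listed in both tables, where 63.9% of genes were called in nucleus and 69.8% on chromatin, and where 4 and 5 members of the 7 were called in place of 2 and 3.

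In endoderm cytoplasm no member was called higher than in hPSC, and NOTCH1, JAG1, JAG2 and RBPJ were lower. NOTCH1 measured 24.2, 29.3 and 32.3 CPM in endoderm and fell (log2 -0.59, SE 0.12, adjusted p = 7.86e-04), with every endoderm library below every hPSC library. JAG1 measured 7.79, 7.84 and 7.27 CPM and fell by 0.92 (SE 0.14, adjusted p = 7.56e-05), again without overlap. The TPM change of NOTCH1 was -0.59 (adjusted p = 0.0084) and that of JAG1 -0.38, which was not called. JAG2 measured 5.94, 4.93 and 5.26 CPM and fell by 0.71 in counts (SE 0.22, adjusted p = 0.0134), but on the TPM scale, with its shorter endoderm isoform, the change was 0.42 and not called (adjusted p = 0.0633). DLL3 measured 0.654, 0.912 and 1.82 CPM and fell by 2.34 (SE 0.39, adjusted p = 7.04e-04, fit of genes in both tables, in which 50.9% of genes were called). NOTCH2, at 22.1, 26.8 and 19.2 CPM, was not called (log2 0.26, SE 0.14). NOTCH3, at 53.9, 52.7 and 49.8 CPM, was not called in counts (log2 0.06, SE 0.14) but was 1.55 higher on the TPM scale, where its endoderm values were 19.6, 17.8 and 17.1 against 3.93, 5.44 and 7.75 in hPSC, with the sum over 3 short entries in endoderm.

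RBPJ measured 113, 131 and 106 CPM in endoderm cytoplasm, overlapping hPSC, and its fall of 0.34 (SE 0.12, adjusted p = 0.0313) was lost without hPSC replicate 2 or 3 or endoderm replicate 1 or 3 (adjusted p from 0.0604 to 0.124) and was -0.06 on the TPM scale. The JAG2 call was lost without hPSC replicate 2 (adjusted p = 0.0561), which left 3 members called. The count of 5 of 7 members called includes the HES1 entry that is not read here, and stood against 58.1% of all genes, 29.5% higher and 28.6% lower, with 59.5% free of overlap. The median of the 7, which also includes that HES1 entry, was -0.59 against -0.00 over all genes. With TPM values 2 members were called, the all-gene median moved by 0.28 and the higher share of calls went from 50.8% to 77.4%.

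In endoderm nucleus JAG1 measured 39.6, 49.4 and 53.6 CPM, all below the hPSC nuclei (log2 -1.45, SE 0.13, adjusted p = 1.05e-06; TPM -1.65), and on chromatin it measured 49.0, 51.8 and 56.7 CPM (log2 -0.98, SE 0.16, adjusted p = 1.22e-04; TPM -1.10). RBPJ measured 11, 32.3 and 28.0 CPM in endoderm nucleus against 95.4, 84.1 and 74.6 CPM in hPSC nucleus, and fell by 1.53 (SE 0.24, adjusted p = 1.26e-04; TPM -1.72). All endoderm nuclei lay below all hPSC nuclei for both genes, and endoderm replicate 1 was the lowest for each. DLL3 rested on few counts in endoderm, at 2.08, 1.84 and 1.27 CPM in nucleus and 0.162, 0.506 and 0.766 CPM on chromatin, and its log2 changes were -4.29 and -4.72 (fits of genes in both tables, 51.2% and 63.7% of genes called); without endoderm chromatin replicate 3 the second value was -5.38. NOTCH2 and NOTCH3 were higher in both fractions. NOTCH2 measured 358, 263 and 372 CPM in nucleus, overlapping hPSC (log2 0.66, SE 0.20, adjusted p = 0.0133; TPM 0.27), and 294, 366 and 255 CPM on chromatin, clear of hPSC (log2 0.92, SE 0.22, adjusted p = 0.00284; TPM 0.67). NOTCH3 measured 1087, 603 and 711 CPM in nucleus (log2 0.75, SE 0.28, adjusted p = 0.0354; TPM 1.73) and 646, 515 and 532 CPM on chromatin (log2 0.68, SE 0.26, adjusted p = 0.032; TPM 1.86), the TPM values again being sums over the 3 short entries.

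Several of these calls rested on single libraries. The nuclear NOTCH3 call was lost without any 1 of the 3 hPSC nuclei or endoderm nucleus replicate 1 (log2 0.25 without the latter), and the nuclear NOTCH2 call without hPSC nucleus replicate 1 (adjusted p = 0.0504), which left 3 members called. The chromatin calls of NOTCH3 and of RBPJ (log2 -0.53, adjusted p = 0.0172) were lost without hPSC chromatin replicate 1 or 2 or endoderm chromatin replicate 3, each of which left 3 members called; endoderm replicate 1 also ended the NOTCH3 call and endoderm replicate 2 the RBPJ call. Without hPSC chromatin replicate 3, JAG2 was called higher (log2 1.01, adjusted p = 0.0195; TPM 1.43 with all libraries). With these calls, 5 of 7 members passed in nucleus and 5 of 7 on chromatin, HES1 included, against 57.4% and 61.9% of all genes. Of all genes 28.1% were higher and 29.3% lower in nucleus, and 28.9% and 33% on chromatin, while 66.7% and 68.9% had no overlap. Scaling by library totals moved the nuclear median of all genes by -0.39 and the higher share of calls from 49.0% to 28.5%, and left 3 members called. With TPM values the higher shares were 31.2% in nucleus and 36.4% on chromatin.

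In mesoderm cytoplasm NOTCH1 was far lower than in hPSC, whereas NOTCH2, NOTCH3, DLL1, JAG1 and HES1 were higher. NOTCH1 measured 1.30, 1.52 and 1.33 CPM and fell by 4.83 in counts (SE 0.17, adjusted p = 7.45e-12). Its mesoderm entry was a single short isoform. Its TPM fell from 4.46, 5.65 and 6.46 to 0.93, 1.09 and 0.86, a fall of 1.72 with 1 added to each value. NOTCH2 measured 55.9, 43.0 and 38.8 CPM and rose by 1.39 (SE 0.14; TPM 1.10), and NOTCH3 measured 131, 90.9 and 101 CPM and rose by 1.22 (SE 0.14; TPM 1.31). The mesoderm and hPSC libraries of these 3 receptors did not overlap on either scale. DLL1 measured 13.8, 11.2 and 8.96 CPM and rose by 2.25 (SE 0.28, adjusted p = 1.19e-04, fit of genes in both tables, 65.9% called; TPM 1.49). JAG1 measured 28.0, 23.0 and 21.8 CPM and rose by 0.86 (SE 0.13, adjusted p = 4.72e-05; TPM 0.85). HES1 measured 29.6, 25.5 and 31.8 CPM and rose by 1.14 (SE 0.18, adjusted p = 6.15e-05; TPM 1.14, not called). These ligand and target values lay above all hPSC libraries. JAG2, at 13, 9.33 and 8.81 CPM, overlapped hPSC and was not called in counts (log2 0.34, SE 0.22), but was called on the TPM scale (0.74).

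RBPJ measured 116, 105 and 105 CPM in mesoderm cytoplasm, and its fall of 0.32 (SE 0.12, adjusted p = 0.0319; TPM -0.10) was lost without hPSC replicate 2 or 3 or mesoderm replicate 2 or 3 (adjusted p from 0.0516 to 0.132). HEY1, listed at 9.18, 10.8 and 11.2 CPM, could not be tested against hPSC. Of the 7 members tested, 4 were called higher and 2 lower, against 68.1% of all genes called, 34.6% higher and 33.4% lower, and 68.5% without overlap. The median of the 7 was 0.86 against 0.00 over all genes. On the TPM scale the all-gene median moved by 0.17 and the higher share of calls went from 50.9% to 63.8%.

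In mesoderm nucleus and chromatin the low NOTCH1 and high HES1 values recurred. NOTCH1 measured 18.1, 8.64 and 15.4 CPM in nucleus (log2 -4.83, SE 0.36; TPM -1.76) and 4.61, 18.1 and 2.83 CPM on chromatin (log2 -5.16, SE 0.54; TPM -3.07); without mesoderm chromatin replicate 2, the highest of the 3, the chromatin value was -6.51. HES1 measured 31.5, 34.3 and 34.8 CPM in nucleus (log2 1.66, SE 0.17) and 44.1, 20.9 and 22.0 CPM on chromatin (log2 1.53, SE 0.27, adjusted p = 3.15e-04), above every hPSC library. DLL1 was higher too, by 0.87 in nucleus (37.2, 39.3 and 40.3 CPM, adjusted p = 6.57e-05) and by 1.79 on chromatin (39.9, 32.5 and 21.1 CPM, adjusted p = 0.00186), in fits of genes in both tables with 70.9% and 42.9% called. NOTCH2 rose on chromatin by 0.72 (SE 0.22, adjusted p = 0.0139), a call lost without hPSC chromatin replicate 2 (adjusted p = 0.0541), which left 2 members called. NOTCH3 rose on chromatin by 0.68 (SE 0.26, adjusted p = 0.0352), a call lost without hPSC chromatin replicate 1 or 2 or mesoderm chromatin replicate 2 (adjusted p from 0.0886 to 0.155). JAG2, at 84.4, 74.7 and 32.1 CPM on chromatin, was called without mesoderm replicate 3 (log2 1.12, adjusted p = 0.00415) or hPSC replicate 3 (log2 1.15), but not with all libraries (log2 0.78; TPM 1.37 and called). The other members were not called in counts, among them nuclear JAG1 (log2 -0.23, TPM 0.68). In nucleus NOTCH2 measured 390 to 436 CPM against 263 to 303 in hPSC, and NOTCH3 732 to 1039 against 556 to 699. RBPJ measured 112 to 140 CPM there against 74.6 to 95.4 in hPSC. The nuclear libraries of NOTCH2, NOTCH3 and RBPJ did not overlap, while those of JAG1 and JAG2 did. The tests called 2 of 7 members in nucleus and 4 of 7 on chromatin, against 54.1% and 54.6% of all genes. Of all genes 26.1% were higher and 28% lower in nucleus, and 27.1% and 27.5% on chromatin, while 73.2% and 54.8% had no overlap. With TPM values 7 of 7 were called in nucleus, but the all-gene median moved by 0.79 and the higher share of calls went from 48.2% to 88.4%; on chromatin it moved by 0.22, with 65.8% of calls higher. Library totals moved the nuclear median by 0.19.

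**Figure D2:**
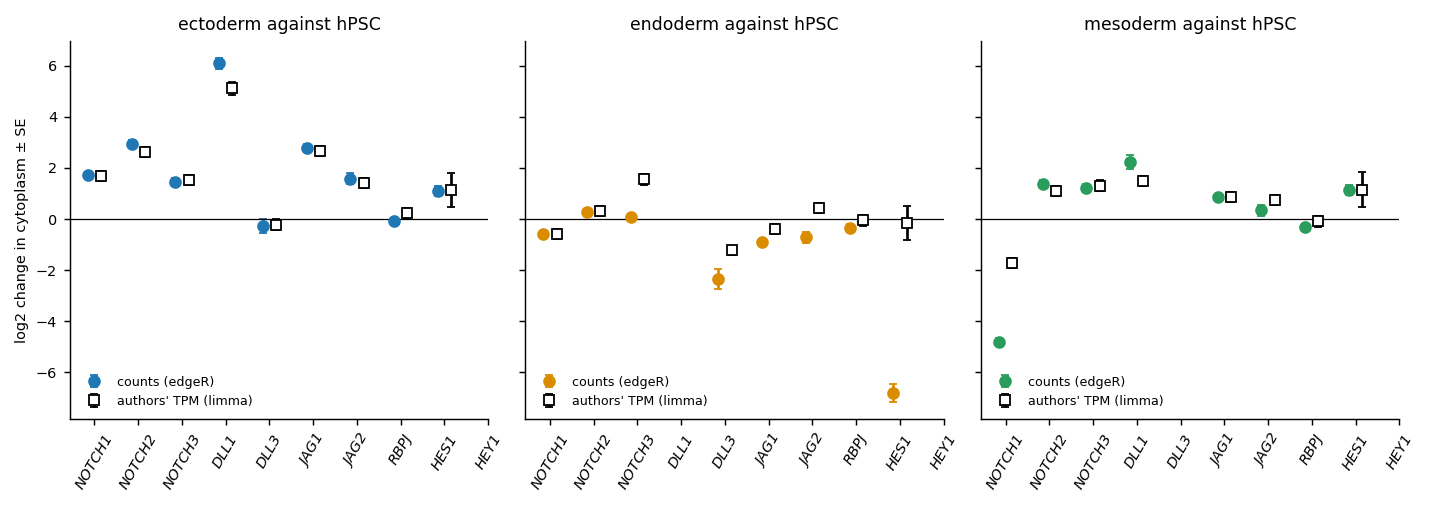
log2 change of each member in cytoplasm of ectoderm, endoderm and mesoderm against hPSC, from counts (filled circles) and from the authors' TPM (open squares), with bars of 1 SE; a gene with no point was not listed in 1 of the tables. In ectoderm the scales lie close together for most members, such as NOTCH1 (1.70 and 1.69), but DLL1 lies higher in counts than in TPM. NOTCH3 in endoderm (0.06 and 1.55), HES1 in endoderm and NOTCH1 in mesoderm (-4.83 and -1.72) also differ between them.

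The receptors and JAG1 were counted more in nucleus than in cytoplasm in every cell type. In hPSC, NOTCH2 measured 18.8, 14.6 and 17.4 CPM in cytoplasm and 263, 303 and 264 CPM in nucleus (log2 -4.10, SE 0.14, adjusted p = 1.74e-10). NOTCH1 measured 34.6, 36.5 and 43.1 CPM against 321, 417 and 356 CPM (log2 -3.33, SE 0.17), NOTCH3 36.7, 40.5 and 55.3 CPM against 556, 699 and 676 CPM (log2 -3.94, SE 0.18), and JAG1 10.3, 12.4 and 15.4 CPM against 149, 176 and 173 CPM (log2 -3.78, SE 0.15). For DLL1, DLL3 and JAG2 the log2 differences were -3.13, -3.25 and -2.24. RBPJ went the other way, at 107, 135 and 149 CPM in cytoplasm and 95.4, 84.1 and 74.6 CPM in nucleus (log2 0.56, SE 0.17, adjusted p = 0.0116); it was not called without hPSC nucleus replicate 3 (adjusted p = 0.0529) or on the TPM scale (0.14). HES1, at 15.5, 12 and 10.7 CPM in cytoplasm, was not called (log2 0.35, adjusted p = 0.0924), except without hPSC cytoplasm replicate 3 (log2 0.49, adjusted p = 0.0321), and its TPM change was -0.07. Of 9 members, 8 were called and in all 9 the libraries did not overlap, against 65.4% of genes called (35% higher, 30.4% lower) and 71.5% without overlap. The median of the members was -3.25 against 0.10 over all genes. On the TPM scale the all-gene median moved by -0.29 and the higher share of calls went from 53.6% to 33.9%.

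Mitochondrial transcripts differed with fraction beside these values (SD, n = 3). They made 0.515% ± 0.11 of counts in hPSC cytoplasm and 13.9% ± 1.3 in hPSC nucleus. The cytoplasm and nucleus shares were 1.29% ± 0.33 and 9.50% ± 1.2 in ectoderm, and 0.436% ± 0.021 and 11.6% ± 4.1 in endoderm. Mesoderm went the other way, at 6.79% ± 0.85 and 1.26% ± 0.13. The part of mitochondrial transcripts in the results was not tested.

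In ectoderm, where 4 of 5 nuclear control RNAs were higher in cytoplasm, these genes were again higher in nucleus. NOTCH1 measured 138, 125 and 132 CPM in cytoplasm and 507, 388 and 518 CPM in nucleus (log2 -2.17, SE 0.13, adjusted p = 4.88e-08), NOTCH2 differed by -1.78 (SE 0.12), NOTCH3 by -2.64 (SE 0.17), DLL1 by -1.61 (SE 0.12) and JAG1 by -2.38 (SE 0.10). Ectoderm replicate 2 was the lowest of the nuclei for each of these 5 genes and still lay above all cytoplasm libraries. DLL3 differed by -0.99 (SE 0.27, adjusted p = 0.00806), a call lost without cytoplasm replicate 1 (adjusted p = 0.0509), and HEY1 by -0.48 (SE 0.16, adjusted p = 0.0219), a call lost without cytoplasm replicate 1 or 2 or nucleus replicate 2 or 3 (adjusted p from 0.0572 to 0.114). JAG2 measured 31.4, 1.50 and 38.7 CPM in ectoderm nucleus and 30.8, 25.9 and 17.8 CPM in cytoplasm. Nucleus replicate 2 stood apart there: with it JAG2 was not called (log2 -0.18, SE 0.62; 0.08 with library totals, TPM 0.46), and without it JAG2 was lower in cytoplasm (log2 -0.70, adjusted p = 0.0238). RBPJ was higher in cytoplasm (log2 0.58, SE 0.15, adjusted p = 0.00556), and HES1 was not called (log2 -0.25, adjusted p = 0.0703; 0.10 with library totals, TPM 0.06), except without nucleus replicate 1 (log2 -0.35, adjusted p = 0.0169). In all, 8 of 10 were called, against 53.7% of all genes (27.2% higher, 26.5% lower; 57.7% without overlap), and the median of the members was -1.30 against 0.01 over all genes. Scaling by library totals moved the all-gene median by 0.35 and the higher share of calls from 50.7% to 76.4%; on the TPM scale the values were 0.16 and 75.7%.

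In endoderm, NOTCH1 measured 24.2, 29.3 and 32.3 CPM in cytoplasm and 378, 221 and 250 CPM in nucleus (log2 -4.10, SE 0.30, adjusted p = 1.65e-08). NOTCH2 differed by -4.62 (SE 0.26), NOTCH3 by -4.74 (SE 0.31), JAG1 by -3.34 (SE 0.15) and JAG2 by -3.41 (SE 0.23), all without overlap. RBPJ was again the exception, at 113, 131 and 106 CPM in cytoplasm and 11, 32.3 and 28.0 CPM in nucleus (log2 1.66, SE 0.20, adjusted p = 4.01e-06; TPM 1.81). DLL3 differed by -1.37 (SE 0.49, adjusted p = 0.0223), a call lost without cytoplasm replicate 1 or 2 or nucleus replicate 1 (adjusted p from 0.0808 to 0.111). All 7 members tested were called, against 69.8% of all genes (34.4% higher, 35.5% lower; 75.7% without overlap), and the median of the members was -3.41 against 0.01. Library totals moved the all-gene median by 0.70 and the higher share of calls from 49.2% to 71.4%; on the TPM scale the values were 0.27 and 62.8%.

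In mesoderm, NOTCH1 differed by -3.24 (SE 0.62), NOTCH2 by -3.06 (SE 0.23), NOTCH3 by -2.99 (SE 0.26), DLL1 by -1.68 (SE 0.22), JAG1 by -2.61 (SE 0.15) and JAG2 by -2.05 (SE 0.32), again without overlap. RBPJ, at 116, 105 and 105 CPM in cytoplasm and 112, 140 and 126 CPM in nucleus, was not called in counts (log2 -0.11, SE 0.13) and was lower in cytoplasm on the TPM scale (-1.25, adjusted p = 2.57e-05). HES1 was not called in counts either (log2 -0.10, SE 0.24; TPM -1.24). HEY1, at 9.18, 10.8 and 11.2 CPM in cytoplasm and 5.02, 6.96 and 6.13 CPM in nucleus, was higher in cytoplasm (log2 0.91, SE 0.36, adjusted p = 0.0434), but the call was lost without cytoplasm replicate 2 or 3 or any 1 nucleus library (adjusted p from 0.0606 to 0.129), and the TPM change was -0.23. Of 9 members 7 were called, against 63.3% of all genes (31.8% higher, 31.5% lower, 74.8% without overlap); the median of the members was -2.05 against -0.00. The TPM scale moved the all-gene median by -0.82 and the higher share of calls from 50.3% to 10.6%, and library totals moved the median by -0.10.

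**Figure D3:**
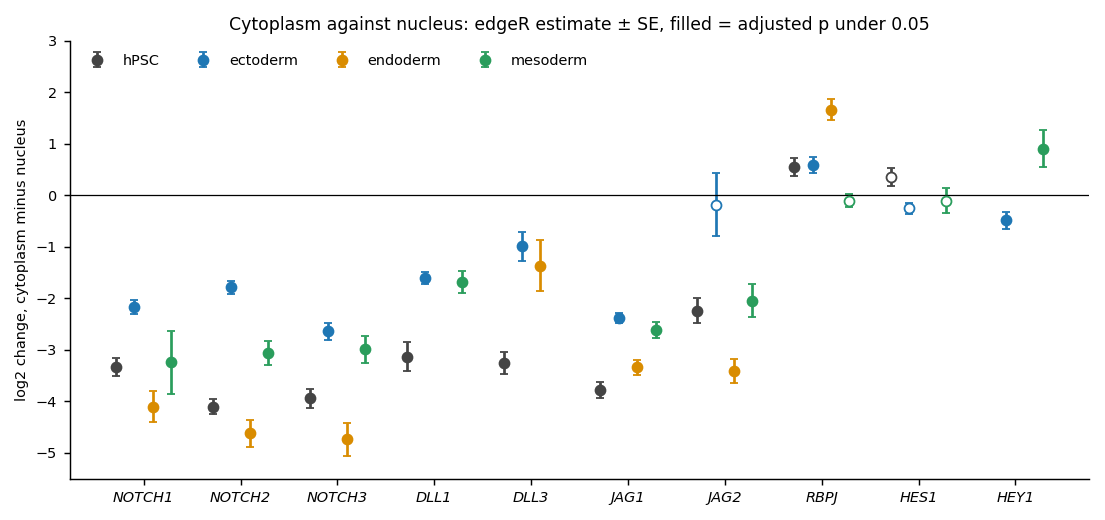
log2 change of each member in cytoplasm against nucleus within each cell type (edgeR estimate, bars of 1 SE); filled points have an adjusted p under 0.05. The NOTCH receptors lie between -1.78 (NOTCH2, ectoderm) and -4.74 (NOTCH3, endoderm), and RBPJ lies above 0 in hPSC, ectoderm and endoderm.

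The difference between cytoplasm and nucleus was itself compared between each lineage and hPSC. In ectoderm the gap was narrower for 5 of the 7 members tested: NOTCH1 by 1.35 (SE 0.34, adjusted p = 0.00213), NOTCH2 by 2.51 (SE 0.25, adjusted p = 2.84e-07), NOTCH3 by 1.49 (SE 0.33, adjusted p = 7.25e-04), JAG1 by 1.59 (SE 0.17, adjusted p = 6.79e-07) and JAG2 by 2.23 (SE 0.73, adjusted p = 0.0139). The JAG2 value includes ectoderm nucleus replicate 2 with 1.50 CPM; it was 1.65 and still called without that library, and ran up to 2.87 without ectoderm nucleus replicate 3. DLL1 and DLL3 moved the same way, by 1.64 (SE 0.29) and 2.40 (SE 0.34), in the fit of genes in both tables (49.5% called). RBPJ and HES1 were not called (0.21 and -0.41). Beside these values, the fraction controls differed between the cell types: 6 of 9 cytoplasmic controls were higher in cytoplasm in hPSC and 0 of 9 in ectoderm, and 2 of 4 and 4 of 5 nuclear controls; their part was not tested. Over all genes 51.9% were called (27.4% higher, 24.6% lower) and the median was 0.10; on the TPM scale it moved by 0.38, with 82.2% in place of 52.7% of calls higher, and the values of the 5 genes lay between 1.63 and 2.61.

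In endoderm 2 of 7 members were called, against 38% of all genes (19.7% higher, 18.3% lower). The excess of RBPJ in cytoplasm over nucleus was larger than in hPSC (1.16, SE 0.29, adjusted p = 0.00413, TPM 1.66). Mean RBPJ was 117 CPM in endoderm cytoplasm against 131 in hPSC cytoplasm, and 23.8 against 84.7 CPM in nucleus, so the lower value was the nuclear one. The JAG1 gap was narrower by 0.50 (SE 0.18, adjusted p = 0.0326, TPM 1.28). The JAG1 call was lost without hPSC cytoplasm replicate 1 or 2, hPSC nucleus replicate 2 or 3, endoderm cytoplasm replicate 1 or 2, or endoderm nucleus replicate 2 (adjusted p from 0.0536 to 0.0832). Without hPSC cytoplasm replicate 1 or 2, hPSC nucleus replicate 2 or 3 or endoderm cytoplasm replicate 2, 1 member was called, and without endoderm nucleus replicate 2 there were 4, with NOTCH1, NOTCH2 and NOTCH3 wider than in hPSC (-0.89, -0.63 and -0.94). NOTCH3 was also called without endoderm nucleus replicate 3 (-0.85, adjusted p = 0.0436). With all libraries these receptors were not called (-0.67, -0.43 and -0.71; NOTCH1 0.07 and NOTCH2 0.05 on the TPM scale, and NOTCH2 0.12 with library totals). DLL3 was narrower by 1.93 (SE 0.51, adjusted p = 0.0147; 26.2% of genes called in that fit), a call lost without endoderm cytoplasm replicate 3 (adjusted p = 0.0596). Library totals moved the all-gene median by 0.51 and the TPM scale by 0.55, with 90.0% and 94.6% of calls higher in place of 51.8%.

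In mesoderm the gap was narrower for NOTCH2 (1.10, SE 0.25, adjusted p = 0.0030), NOTCH3 (1.01, SE 0.32, adjusted p = 0.0258) and JAG1 (1.22, SE 0.18, adjusted p = 5.54e-05), 3 of 7 against 25.6% of all genes (18.7% higher, 6.88% lower), and for DLL1 (1.52, SE 0.30, adjusted p = 0.00117, in a fit with 38.1% called). On the log2(TPM + 1) scale these 4 values were -0.12, 0.08, 0.17 and -0.17. The all-gene median was 0.16 in counts and moved by -0.76 on the TPM scale, where the higher share of calls went from 73.1% to 5.26%. The added 1 weighs on low values, such as DLL1 at a mean of 0.62 TPM in hPSC cytoplasm. Library totals moved the median by -0.34, with 36.8% higher. The fraction controls differed here too. Of 9 cytoplasmic controls 9 were higher and 0 lower in mesoderm cytoplasm, against 6 and 3 in hPSC. Of 4 nuclear controls 0 were higher and 3 lower, against 2 and 1 in hPSC. The part of these controls was not tested. The NOTCH3 call was lost without hPSC cytoplasm replicate 1 or 2, hPSC nucleus replicate 2 or 3, mesoderm cytoplasm replicate 1 or mesoderm nucleus replicate 2 (adjusted p from 0.0558 to 0.0716).

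Within the nucleus, JAG2 was the 1 member called higher on chromatin than in nucleoplasm in counts, in hPSC and endoderm. It measured 14.3, 15.3 and 13.9 CPM in hPSC nucleoplasm and 33.4, 29.1 and 57.5 CPM on hPSC chromatin (log2 1.23, SE 0.23, adjusted p = 0.0018). In endoderm it measured 19.9, 17.7 and 14.9 CPM in nucleoplasm and 56.3, 41.8 and 66.4 CPM on chromatin (log2 1.07, SE 0.21, adjusted p = 5.40e-04). Ectoderm JAG2, at 38.0, 30.9 and 21.8 against 67.3, 72.7 and 53.6 CPM, had no overlap either but was not called in counts (log2 0.81, SE 0.61). With TPM values JAG2 was called in all 3 cell types (1.55, 1.53 and 1.63 in hPSC, ectoderm and endoderm). NOTCH2 went the other way in counts. It fell on chromatin by 0.62 in hPSC (SE 0.12, adjusted p = 0.00296; TPM -0.05) and by 1.47 in endoderm (619, 537 and 547 against 294, 366 and 255 CPM, SE 0.23, adjusted p = 6.96e-05; TPM -0.81).

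In ectoderm NOTCH2 (log2 -0.43), NOTCH3 (-0.77, SE 0.16, adjusted p = 0.00192; TPM -0.03), JAG1 (-0.34) and HEY1 (-0.45) were lower on chromatin, and on the TPM scale NOTCH2, JAG1 and HEY1 were not, at 0.34, 0.42 and 0.27. The HEY1 call was lost without any 1 of the 6 libraries, the JAG1 call without nucleoplasm replicate 2 or any 1 chromatin library, and the NOTCH2 call without nucleoplasm replicate 2 or chromatin replicate 1 or 2. Without those 3 libraries in turn 1 member was called, and without chromatin replicate 3 there were 2. In endoderm NOTCH3 fell by 0.91 (SE 0.27, adjusted p = 0.0107; TPM -0.28), JAG1 by 0.87 (SE 0.13, adjusted p = 5.91e-05; TPM -0.20) and DLL3 by 1.69 (SE 0.60, adjusted p = 0.0274; TPM -0.41), and none of these 3 was called on the TPM scale. The DLL3 call was lost without nucleoplasm replicate 2 or 3 or chromatin replicate 1 or 2 (adjusted p from 0.0516 to 0.111), and was -2.28 without chromatin replicate 3. In hPSC, without chromatin replicate 2, RBPJ (log2 -0.59) and DLL1 (log2 0.84) were called as well, which made 4 members, and RBPJ was called without chromatin replicate 1 too (log2 -0.58).

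The counts of members called, chromatin against nucleoplasm, were 2 of 9 (hPSC), 4 of 10 (ectoderm) and 5 of 7 (endoderm), against 30.5%, 44.1% and 53.5% of all genes. The higher share of all genes was 17.1%, 18.5% and 22.9%, the lower share 13.3%, 25.6% and 30.6%, and the share without overlap 54.3%, 59.9% and 71.2%. Library totals moved the all-gene median by 0.23, 0.29 and 0.58, and the higher share of calls from 56.2%, 41.9% and 42.8% to 86.5%, 71.0% and 73.8%; on the TPM scale these shares were 96.7%, 96.5% and 76.0%. Mesoderm had 1 nucleoplasm library, matched by group alone, and no test. There JAG2 measured 38.6 CPM in nucleoplasm against 84.4, 74.7 and 32.1 CPM on chromatin, and NOTCH2 193 CPM against 195, 317 and 324 CPM.

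**Figure D4:**
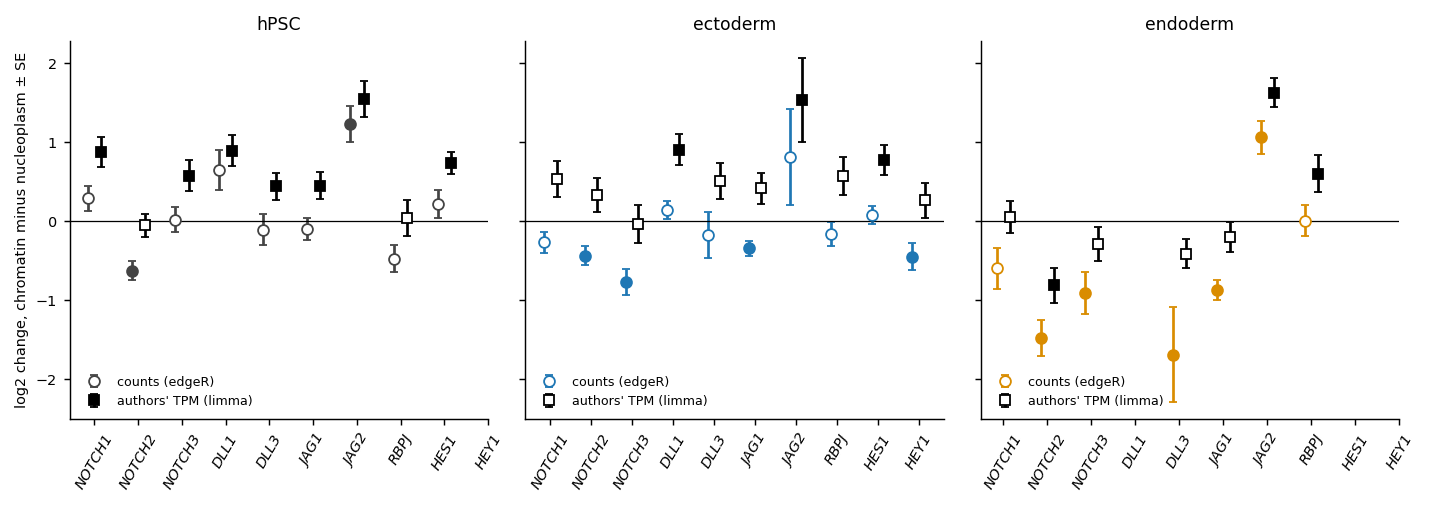
log2 change of each member on chromatin against nucleoplasm in hPSC, ectoderm and endoderm, from counts (circles) and the authors' TPM (squares), with bars of 1 SE; filled points have an adjusted p under 0.05. JAG2 lies above 0 on both scales in each panel (1.23 and 1.55 in hPSC), while most other members shift upward from counts to TPM.

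Most members were carried by 1 isoform. NOTCH2 was counted almost wholly as ENST00000256646.7, with 97.99% of its counts on ectoderm chromatin and more in each other group. NOTCH1 was a single unlisted isoform in endoderm and mesoderm and mainly 1 in hPSC (88.2% in cytoplasm, 98.4% in nucleus); in ectoderm it was split between ENST00000651671.1 (55.5% and 61.2%) and an unlisted isoform (35.3% and 34.8%). JAG1 was ENST00000254958.10 alone in hPSC and ectoderm, and DLL1 was mainly ENST00000366756.4, the only one in hPSC, with 92.9% of cytoplasmic counts in ectoderm and 87.2% in mesoderm, where an unlisted isoform reached 33.9% on chromatin. HES1 was ENST00000232424.4 alone in hPSC and mesoderm, and in ectoderm an unlisted isoform reached 26.5% on chromatin. RBPJ was carried by ENST00000355476.8, with 96.0% (hPSC), 95.6% (ectoderm) and 95.9% (endoderm) of cytoplasmic counts. Mesoderm differed in its listing: there this isoform held 63.2% in cytoplasm and 69.0% in nucleus, but 32.1% in the nucleoplasm library (matched by group alone) and 41.5% on chromatin, and ENST00000342320.8 held 33.4%, 24.6%, 57.3% and 49.2%. NOTCH3 was ENST00000263388.7 alone in ectoderm, and in hPSC this isoform held 64.4% of cytoplasmic and 79.0% of nuclear counts, with an unlisted isoform at 35.1% and 20.8%. In mesoderm the split was 66.8% and 67.0% for ENST00000263388.7 and 31.5% and 31.6% for an unlisted isoform, and in endoderm the longest of the 3 unlisted entries held 85.3% and 81.0%. DLL3 in hPSC was split between ENST00000356433.10 (79.7% in cytoplasm, 69.0% in nucleus) and ENST00000600437.1 (20.3% and 31.0%). HEY1 was ENST00000354724.8 alone in ectoderm, and in mesoderm it shared cytoplasmic counts with ENST00000674160.1 (75.3% and 24.7%).

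Tested as isoforms, cytoplasm against nucleus, 11 of 16 hPSC isoforms were called, 9 of 22 from ectoderm, 9 of 13 from endoderm and 10 of 21 from mesoderm, against 39.7%, 13.7%, 42.1% and 32% of all isoforms. Lower isoforms made 10, 7, 7 and 10 of these. In ectoderm JAG2 had 3 unlisted isoforms, of which the leading one held 45.6% of its counts in cytoplasm and 85.5% in nucleus and the least 14.7% and 5.64%. The other held 39.7% of JAG2 counts in cytoplasm and 8.91% in nucleus and was higher in cytoplasm (log2 1.91, adjusted p = 0.026), a call lost without cytoplasm replicate 1 or nucleus replicate 2 or 3 (adjusted p from 0.0743 to 0.0982). How reads were shared between isoforms of a gene is uncertain, as is any split between NOTCH2 or RBPJ and their near-identical copies elsewhere in the genome, and the labels do not say whether counting used strand.

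In a list of 55 further pathway genes, most of those that modify and cut the receptor were lower in cytoplasm than in nucleus. In hPSC 8 of 48 tested genes of the list were higher in cytoplasm and 19 lower, in ectoderm 11 and 22 of 51, in endoderm 10 and 21 of 40, while mesoderm had 7 and 17 of 44. Over all genes 35% were higher and 30.4% lower in hPSC, 27.2% and 26.5% in ectoderm, 34.4% and 35.5% in endoderm, and 31.8% and 31.5% in mesoderm. Of its 14 genes for glycosylation and processing, 0 were higher and 12 lower in hPSC, and the same counts held in ectoderm; in endoderm it was 0 and 12 of 12, and in mesoderm 2 and 10 of 12. NCSTN, a subunit of gamma-secretase, had log2 differences of -3.14 (hPSC), -2.29 (ectoderm), -4.29 (endoderm) and -2.69 (mesoderm). POFUT1, which adds fucose to the receptors, had -2.95 (hPSC), -1.85 (ectoderm) and -3.33 (endoderm). The proteases ADAM17 and ADAM10 differed by -2.27 and -2.19 in mesoderm. Of the nuclear coactivators and corepressors 5 were higher and 4 lower in cytoplasm of 17 in hPSC, 7 and 3 of 17 in ectoderm, 6 and 5 of 15 in endoderm, while mesoderm had 2 and 4 of 17. Those higher included HDAC2 (1.27) and SNW1 (1.05) in hPSC, CIR1 in ectoderm (2.32), and CIR1 (3.28), HDAC2 (2.59) and SNW1 (1.53) in endoderm. In mesoderm NRARP (1.37), CIR1 (1.11) and PSENEN (1.03) were called higher in counts and not on the TPM scale (0.20, -0.05 and -0.20).

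Between cell types, the 38 list genes tested in cytoplasm held 20 called higher and 8 lower in ectoderm, 17 and 9 in endoderm, and 16 and 9 in mesoderm. The shares of all genes called were 76%, 58.1% and 68.1%. By direction they were 38% higher and 37.9% lower in ectoderm, 29.5% and 28.6% in endoderm, and 34.6% and 33.4% in mesoderm. The list was not tested as a set, so these counts are no result about it. The coactivator CREBBP was higher than in hPSC in all 3 lineages (log2 5.27, 4.83 and 3.00; TPM 3.14, 4.07 and 2.43), as was the Mastermind-like coactivator MAML3 (2.19, 2.18 and 2.01; TPM 2.12, 2.03 and 0.86). The cell types were counted on different assemblies, and assembled lengths of the list genes were not compared. The part of length in these changes was not tested. MIB1, a ubiquitin ligase that activates ligands, was higher in ectoderm (2.40, TPM 1.66) and lower in endoderm in counts (-1.98, TPM -0.43 and not called). FURIN, the protease that matures the receptor, rose in endoderm (2.51) and mesoderm (1.97). Both genes that the list groups as targets and that could be tested were lower in ectoderm: HEY2 (log2 -4.28) and HES6 (log2 -1.92). In mesoderm HEY2 was also lower (-2.08) and HES6 too (-1.14). In endoderm HEY2 was -1.22 in counts but 0.75 on the TPM scale, and called on both. The 3 lineages share the hPSC libraries as controls.

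**Figure D5:**
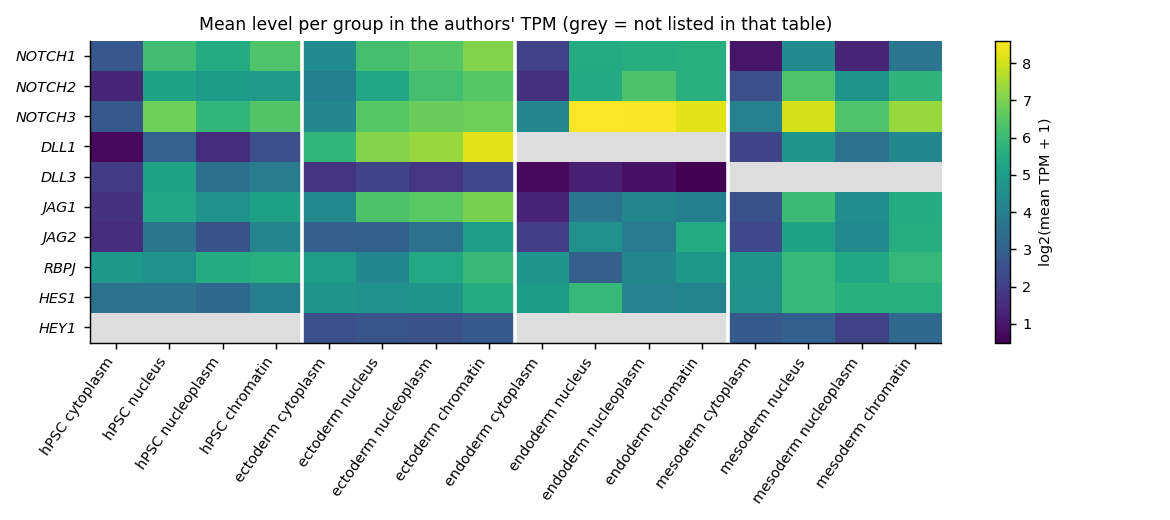
Mean level of each member in each of the 16 groups as log2(mean TPM + 1), with grey where a gene was not listed. NOTCH3 is the member with the highest level in endoderm nucleus (388 TPM, summed over 3 short entries) and DLL1 in ectoderm chromatin (306 TPM). The receptors have lower levels (darker cells) in each cytoplasm column than in the nuclear column of the same cell type.

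On the length-corrected TPM scale, RBPJ led the members in hPSC cytoplasm at 27.4 ± 8.7 TPM (SD, n = 3), above HES1 at 10.5 ± 0.55. NOTCH3 (5.71 ± 1.9) and NOTCH1 (5.52 ± 1.0) followed within each other's spread, then DLL3 (2.81 ± 0.36), JAG1 (2.22 ± 0.70), JAG2 (1.92 ± 0.45) and NOTCH2 (1.56 ± 0.19), of which neighbours lay within 1 SD of each other, and DLL1 (0.62 ± 0.30) came last. In ectoderm cytoplasm DLL1 led at 55.8 ± 11 TPM, followed by RBPJ (31.8 ± 7.6) and HES1 (24.6 ± 4.0), and then by NOTCH1 (20.1 ± 3.2), JAG1 (19.3 ± 4.0), NOTCH3 (17.9 ± 2.8) and NOTCH2 (14.8 ± 2.3), which did not differ beyond their spread from one neighbour to the next. JAG2 (6.84 ± 1.4), HEY1 (4.52 ± 0.91) and DLL3 (2.34 ± 0.85) were the lowest. Endoderm cytoplasm had RBPJ (25.4 ± 2.1) and NOTCH3 (18.2 ± 1.3, summed over 3 short entries) on top. The other listed members, HES1 left aside, were at or under 3.31 ± 0.44 (NOTCH1). In mesoderm cytoplasm RBPJ (24.6 ± 1.3) and HES1 (24.5 ± 2.1) were level, NOTCH3 (15.4 ± 3.1) came next, and NOTCH1 was the lowest at 0.96 ± 0.12.

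In nucleus the order was led by NOTCH3 in hPSC (112 ± 17 TPM), endoderm (388 ± 140, summed over 3 short entries) and mesoderm (267 ± 60), with RBPJ at 23.9 ± 2.5, 6.86 ± 2.6 and 60.1 ± 7.7. In ectoderm nucleus DLL1 was highest (137 ± 29), followed by NOTCH3 (89.7 ± 19), JAG1 (80.7 ± 17) and NOTCH1 (72.5 ± 18), whose spreads overlapped. DLL3 had its highest level in hPSC nucleus (35.4 ± 5.9 TPM) and stayed at or under 3.85 ± 0.44 in each ectoderm fraction and 1.31 ± 0.29 in each endoderm fraction. HEY1 kept to between 4.52 and 5.90 TPM over the 4 ectoderm fractions.

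Over the 16 group means of log2(CPM + 1), and among 9175 genes, the genes most like NOTCH1 were TCTN2 (Pearson's r = 0.950) and XYLT1 (0.943). PCDHGA10 (0.967) and CEMIP2 (0.961) were most like NOTCH2, and PTPRF (0.987) and PLXNB2 (0.978) most like NOTCH3. For JAG1 they were PCDHB15 (0.966) and PCDHGB6 (0.950), for JAG2 POMT1 (0.968) and PKD1 (0.941), and for RBPJ UBE3A (0.960) and ZNHIT6 (0.953). Groups of 1 cell type share an assembly and groups of 1 fraction a preparation, so these values describe the libraries only. For HES1 the closest genes share its near-absent endoderm entry and are not named.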

How the data were processed

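Subcellular RNA libraries were made with the NEBNext Ultra kit after fractionation in buffers with α-amanitin and sequenced on NovaSeq, per the labels' protocols. The authors deposited whole-number counts and TPM values per assembled transcript, in 1 table of each kind per cell type; STAR, RSEM and build hg38 are named in the submitters' processing notes, with no role or version, so a count may be a rounded RSEM estimate. The count columns coded Nei were read as nucleus because the other 3 codes name the other fractions. There was 1 column in these tables that matched no sample and was not used, and a combined table on another assembly was not used.

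Counts were summed per Ensembl gene; rows with no gene held 2.64% to 4.07% of counts and stayed out of tests. Genes were tested with edgeR 4.0.16 (R 4.3.3; TMM, filterByExpr with a minimum count of 10, group as the only term, two-sided quasi-likelihood F test, Benjamini-Hochberg over all genes). Fits between cell types used the 10701 genes listed in all 4 tables; DLL1 and DLL3 are not among them, so they were fitted with the genes of both tables, a choice made after seeing the data. In the mesoderm table the filter works with a smallest group of 1 library. Alternatives were library totals without TMM, DESeq2 1.42.0, no filter, the replicate number as a block, limma 3.58.1 on log2(TPM + 1) of the deposited TPM, and each library left out. The fits were tested on simulated counts with known changes.

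The members, the further pathway list, the markers and the tests were chosen with earlier results of these data known. All members are named, and their isoforms with at least 20% of a gene's counts in a group are described, those with no Ensembl match as unlisted. Named pathway list genes come from the up to 3 called genes with the largest rise and up to 3 with the largest fall per comparison. These had a mean of at least 10 CPM and no overlap between the libraries. Not all of them are named: DNER (log2 -4.44 in hPSC, cytoplasm against nucleus) is left out. None is named from the lineage comparisons in nucleus or on chromatin, from chromatin against nucleoplasm, or from the differences of differences. Like genes are the 2 with the highest correlation per member. Promoters come from RefSeq (GRCh38.p14) and gene positions from GENCODE v29.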

Additional observations from a re-analysis of the deposited data

Results flagged for a closer look

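For these genes the gap between cytoplasm and nucleus in a lineage differed from that in hPSC by a test of the difference itself (log2, lineage minus hPSC, edgeR quasi-likelihood test, all 14 with an adjusted p under 0.05). In ectoderm the values were 1.35 for NOTCH1, 2.51 for NOTCH2, 1.49 for NOTCH3, 1.64 for DLL1, 2.40 for DLL3, 1.59 for JAG1 and 2.23 for JAG2. In endoderm they were 1.93 for DLL3, 0.50 for JAG1 and 1.16 for RBPJ. In mesoderm they were 1.10 for NOTCH2, 1.01 for NOTCH3, 1.52 for DLL1 and 1.22 for JAG1. There the log2(TPM + 1) values of NOTCH2 and DLL1 had the other sign (-0.12 and -0.17). Mean DLL1 was 0.62 TPM in hPSC cytoplasm and 7.21 in hPSC nucleus, and 3.54 and 24.7 in mesoderm. The added 1 thus weighs on the hPSC cytoplasm value, and these signs are not those of plain TPM ratios. All 3 lineages are set against the same hPSC libraries.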

How the results depend on the processing

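Counts of members called moved by over 1.5 times under these settings. On the TPM scale they were 2 in endoderm cytoplasm (5 in the reported fit), 7 in mesoderm nucleus (2), 7 for chromatin against nucleoplasm in hPSC (2) and 3 in endoderm (5), and 1 for the mesoderm difference of differences (3). With library totals they were 3 in endoderm nucleus (5), and 4, 2 and 2 for chromatin against nucleoplasm in hPSC, ectoderm and endoderm (2, 4 and 5); without the filter the ectoderm count was 2. In fits of 2 cell types they were 4 and 5 in ectoderm nucleus and chromatin (2 and 3), and 4 and 2 in mesoderm nucleus and chromatin (2 and 4). With 1 library left out, counts ran from 3 to 5 in endoderm cytoplasm and nucleus, 3 to 6 on endoderm chromatin, 2 to 5 on mesoderm chromatin, 2 to 4 and 1 to 3 for chromatin against nucleoplasm in hPSC and ectoderm, and 1 to 4 for the endoderm difference of differences; the other counts of members stayed within 1.5 times.

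Signs turned as follows (log2, with TPM values as log2(TPM + 1)). On the TPM scale: JAG2 in endoderm cytoplasm 0.42, HES1 in endoderm nucleus 2.31, JAG1 in mesoderm nucleus 0.68; cytoplasm against nucleus HES1 -0.069 (hPSC), HES1 0.059 and JAG2 0.46 (ectoderm), HEY1 -0.23 and the HES1 isoform -1.24 (mesoderm); chromatin against nucleoplasm DLL3 0.44, JAG1 0.45 and RBPJ 0.043 (hPSC), JAG1 0.42, NOTCH2 0.34 and HEY1 0.27 (ectoderm); difference of differences NOTCH1 0.072 and NOTCH2 0.046 (endoderm), NOTCH2 -0.12 and DLL1 -0.17 (mesoderm). With library totals: HES1 0.10 and JAG2 0.076 (ectoderm, cytoplasm against nucleus), DLL3 0.13 and JAG1 0.14 (hPSC, chromatin against nucleoplasm), NOTCH2 0.12 (endoderm difference of differences) and the mesoderm HES1 isoform -0.21. DESeq2 gave -0.0026 for NOTCH3 (hPSC, chromatin against nucleoplasm), and no filter -0.00072 for RBPJ (endoderm, same comparison). Leaving out 1 library turned NOTCH3 in endoderm cytoplasm (range -0.10 to 0.24), ectoderm JAG2, cytoplasm against nucleus (-0.70 to 0.49), and chromatin against nucleoplasm for NOTCH3 in hPSC (-0.098 to 0.12) and RBPJ in endoderm (-0.027 to 0.037). The cause was not tested.

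The labels do not say whether the replicate numbers pair the samples, and deviations from a mean of 3 libraries cannot decide it. Those of same-numbered cytoplasm and nucleus libraries correlated between -0.562 and 0.299 in endoderm and 0.0564 and 0.282 in hPSC. The ranges were -0.108 to 0.360 in ectoderm and -0.156 to 0.195 in mesoderm. Cytoplasm replicates 1 and 2 of hPSC and mesoderm and 2 of ectoderm correlated best with their own number, and the others did not. With the number as a block the counts were 6, 2 and 3 in ectoderm cytoplasm, nucleus and chromatin, 4, 4 and 4 in endoderm, and 5, 2 and 3 in mesoderm. Calls against hPSC not made with the block were RBPJ in endoderm (adjusted p = 0.0532) and mesoderm (0.0540) cytoplasm and NOTCH3 in 3 groups. The latter were endoderm nucleus (0.0697) and endoderm (0.0526) and mesoderm (0.0575) chromatin. HEY1 on chromatin against nucleoplasm within ectoderm was not called with it either (0.0528). With it an unlisted mesoderm DLL1 isoform, not called in the reported fit, was called lower in cytoplasm than in nucleus. Levels in the endoderm table below about 1 CPM, DLL3 and HES1 among them, rest on few counts.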
